A study of Mus musculus with 12 samples.

Results

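Interferon beta, the subunits of its receptor, the kinase TBK1 and 6 interferon regulatory factors (IRFs) were followed across 12 RNA-Seq libraries of mouse bone marrow–derived macrophages (BMDMs). These 10 genes were taken by name, as Ensembl identifiers of the count files matched to mouse symbols, from 43626 genes. Version numbers of the identifiers printed below are those of the GENCODE vM21 annotation and, except for Ifnb1, differ from those in the count files. The rule uses names only, although it was set with earlier results of these data known. All 10 passed the filter on low counts, as did 14308 genes in all. The libraries fell into 4 conditions with 3 libraries each. In the PBS condition the cells received vehicle, in HMO they received 100 μg/mL 3′-sialyllactose (3′SL, an acidic oligosaccharide of human milk), in LPS they received 10 ng/mL lipopolysaccharide, and in LPS+HMO they received both. Treatment lasted 6 hours, and these doses and this time came from the study's methods. The comparisons asked how LPS changed these genes without and with 3′SL, and how 3′SL changed them at rest and during LPS. The cells were cultured from marrow, with no allele or agent shared by all conditions named in the labels. The donor strain, genotype and age were not given in the sources used here, and the labels tied no library to a donor. The p-values thus measured only the spread between these libraries. The paper describes its heatmap samples as independent biological duplicates, but whether the libraries of a condition came from separate mice was not stated.

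As background, LPS is sensed by Toll-like receptor 4, and the adaptor TRIF then activates TBK1. TBK1 phosphorylates IRF3, and IRF3 together with NF-κB and AP-1 switches on the interferon beta gene. Secreted interferon beta binds its receptor IFNAR1/IFNAR2 on the same and neighbouring cells and, through Janus kinases and STAT proteins, turns on antiviral genes, among them IRF genes, which makes macrophages both a source and a target of the cytokine.

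Sequence patterns that this pathway is known for were looked for in the promoters, and 4 stretches are shown, those of the ligand and of the IRF genes that held a match. RefSeq promoters (build GRCm38.p6) matched all 10 symbols, and 3 patterns were searched on both strands of the 250 bases before each RefSeq start. AANNGAAA is a core that IRF proteins recognise, and 21.3% of 32851 RefSeq promoters held it in a window of the same length. TTCNNNGAA is the core of a gamma-activated site, bound by STAT dimers, and was present in 7.02% of them. GGANNTTCC is a κB pattern, bound by NF-κB, and was present in 3.59%. In the stretches, read 5′ to 3′ on the strand of the gene, capitals mark the matches.
Ifnb1, chr4:88522881-88522973, minus strand: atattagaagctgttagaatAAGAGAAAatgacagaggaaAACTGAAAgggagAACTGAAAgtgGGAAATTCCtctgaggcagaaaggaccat
Irf1, chr11:53769904-53769952, plus strand: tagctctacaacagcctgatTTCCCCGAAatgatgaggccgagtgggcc
Irf2, chr8:46739495-46739549, plus strand: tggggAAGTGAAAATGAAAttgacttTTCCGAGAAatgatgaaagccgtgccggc
Irf8, chr8:120736167-120736233, plus strand: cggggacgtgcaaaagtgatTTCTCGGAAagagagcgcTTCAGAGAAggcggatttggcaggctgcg

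The Ifnb1 stretch held 3 IRF cores between 159 and 119 bases before the start and a κB pattern that began 115 bases before it. Irf2 held 2 IRF cores that overlapped each other, followed by 1 gamma-activated pattern. Irf1 held 1 gamma-activated pattern and Irf8 held 2. The Ifnar2 promoter held 1 such pattern, TTCCTGGAA, and the promoters of Ifnar1, Tbk1, Irf3, Irf4 and Irf5 held none of the 3 in this window. A match describes the letters only and says nothing of binding in these cells.

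Each library had between 20411741 and 26851890 reads assigned to genes. Levels are given as CPM, the counts of a gene scaled to library size with TMM factors, and 1 read was worth between 0.0287 and 0.0614 CPM. The TMM factors lay between 1.08 and 1.30 without LPS and between 0.70 and 0.94 with LPS, so the scaling bears on every LPS comparison. All 10 macrophage markers were present, with summed levels of 17996 to 31075 CPM. The 6 T cell markers summed to 0.135 to 0.459 CPM in PBS and 0.0398 to 0.260 in HMO. They summed to 1.56 to 3.74 CPM in LPS and 1.47 to 3.54 in LPS+HMO. Of these, Cd3e and Cd3g had 0 counts in every library, whereas Lck reached 66 counts in a library. Fibroblast markers summed to 684 to 794 CPM in the first 4 libraries by label number, against 30.3 to 44.2 in the next 4 and 73.5 to 116 in the last 4. Neutrophil markers summed to 141 to 222, 268 to 449 and 305 to 1018 CPM in the same order. These runs of 4 libraries, each with 1 library of every condition, also clustered together after the condition means were removed (mean correlation 0.57 within and -0.34 between runs) and are called sets 1, 2 and 3. Set 3 gave the highest level in each of the 4 conditions for 7 of the 10 genes (Ifnar1, Ifnar2, Tbk1, Irf2, Irf3, Irf5 and Irf8), as it did for 16.8% of all genes tested. The part of these other cell types in the results was not tested, and in bulk RNA fewer cells of a type and less RNA per cell cannot be told apart.

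**Figure D1:**
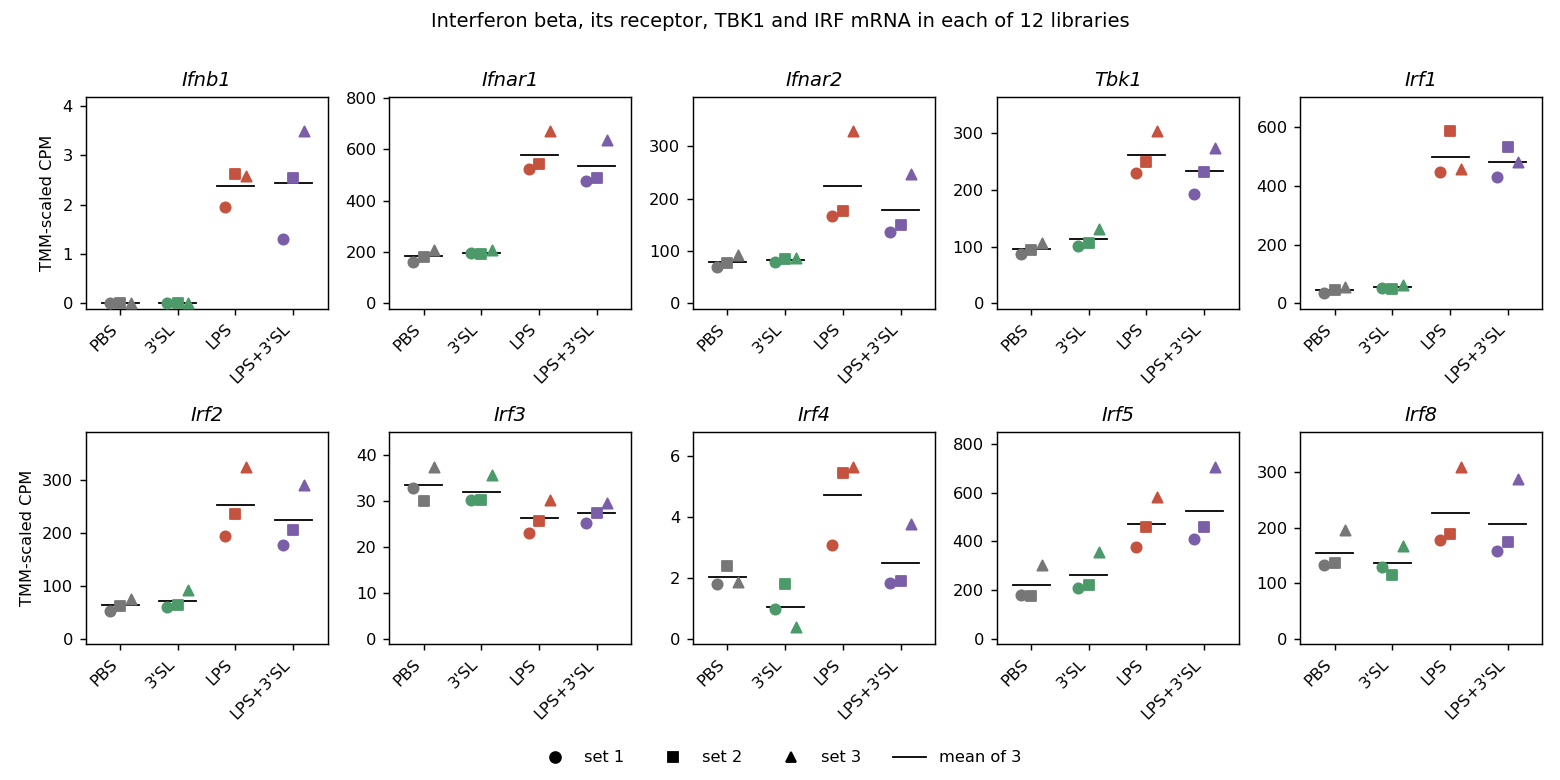
Level of each gene in TMM-scaled CPM (y axes, linear, each panel with its own scale) in the 12 libraries, by condition (x axes); circles, squares and triangles are sets 1, 2 and 3, and lines are means of 3. Ifnb1 was at 0 in all PBS and 3′SL libraries (3′SL is the HMO condition), Irf1 was at or above 431 CPM in every LPS library and at or below 63.9 in the others, and Irf3 was the one gene with lower means with LPS.

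LPS raised the ligand, both receptor chains, the kinase and a part of the IRF genes. A gene was called where edgeR's quasi-likelihood test gave an adjusted p (Benjamini-Hochberg over 14308 genes) under 0.05 and the change was at least 1.5-fold. Ifnb1 passed the filter on low counts only through the LPS libraries and so had to differ, which makes its call in the counts below a description. In LPS against PBS, 7 of the 10 genes were called higher and 0 lower, where 18.3% of all genes were called higher and 20.2% lower. In LPS+HMO against HMO the same 7 were called higher and 0 lower, where the shares over all genes were 14.3% and 14.8%. The 7 were Ifnb1, Ifnar1, Ifnar2, Tbk1, Irf1, Irf2 and Irf5, and the other 3 were Irf3, Irf4 and Irf8. Without Ifnb1, 6 of 9 genes were called higher in each comparison. Libraries with and without LPS did not overlap for 8 of the 10 genes in LPS against PBS and for 9 in LPS+HMO against HMO, as for 58.4% and 46.6% of all genes. The median log2 change of the 10 was 1.47 and 1.16 in these comparisons, with Ifnb1 at its lower bound, and that of all genes was -0.06 and -0.07. Scaling to total counts, with no TMM factors, moved the median of all genes in LPS against PBS to -0.71, and 10.7% of genes were then called higher and 46.5% lower. Of the 10 genes, 6 were then called higher and 1, Irf3, lower. In LPS+HMO against HMO the median moved to -0.54, and 4 of the 10 were called higher and 1, again Irf3, lower. Of all 14308 genes, 1350 were then called higher and 4856 lower in this comparison.

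Interferon beta itself (Ifnb1, ENSMUSG00000048806.4) is a gene of 1 exon on the minus strand of chromosome 4, from 88522025 to 88522774 in the GENCODE annotation of GRCm38. It had 0 counts in the 3 PBS libraries and 0 in the 3 HMO libraries. The LPS libraries held 40, 54 and 42 counts in sets 1 to 3, or 1.95, 2.62 and 2.58 CPM, and the LPS+HMO libraries held 27, 55 and 65 counts, or 1.31, 2.53 and 3.48 CPM. Every library with LPS thus stood above every library without it, although the counts were few. With the 0 counts taken as at most 3 over each group, Ifnb1 was at least 73.4-fold higher in LPS than in PBS and at least 62.0-fold higher in LPS+HMO than in HMO. Scaled to total counts these bounds were 46.7-fold and 44.4-fold. The wider spread lay in LPS+HMO, where sets 1 and 3 stood furthest apart.

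No other type I interferon was measured at a level that could be tested. Of 17 such genes, among them 13 of the interferon alpha family by symbol Ifna, 14 had 0 counts in all 12 libraries and the other 3 reached at most 3 counts in a library.

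The receptor chains rose together with LPS. Ifnar1 (ENSMUSG00000022967.13, chr16:91485238-91507441, plus strand) encodes the chain that carries TYK2. It measured 160.2, 183 and 209 CPM in PBS, 194.5, 192 and 207 in HMO, 524, 542 and 671 in LPS and 478, 487 and 637 in LPS+HMO, in set order. The lowest library with LPS, at 478, stood above the highest without it, at 209. The log2 change was 1.65 (SE 0.15, adjusted p = 1.18e-05) in LPS against PBS and 1.43 (SE 0.15) in LPS+HMO against HMO.

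Ifnar2 (ENSMUSG00000022971.18, chr16:91372783-91405589, plus strand) encodes the chain that binds interferon beta most tightly and carries JAK1. Its levels were 68.8, 77.6 and 91.9 CPM in PBS, 80.0, 84.1 and 86.0 in HMO, 167, 176 and 329 in LPS, and 136, 149 and 247 in LPS+HMO. Set 3 stood apart within both LPS conditions, but the conditions without and with LPS did not overlap. In LPS against PBS Ifnar2 changed by 1.49 on the log2 scale (SE 0.28, adjusted p = 0.00138), and by 1.09 (SE 0.28, adjusted p = 0.0110) in LPS+HMO against HMO. Scaled to total counts, the second was 0.57 and missed the 1.5-fold minimum. Ifnar2 shares 9.46% of its exon bases with the annotated gene Gm21970 on the same strand, and reads from there cannot be assigned to either, so its level is uncertain to that extent.

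Tbk1 (ENSMUSG00000020115.3, chr10:121546455-121586787, minus strand), the kinase that joins sensors to IRF3, measured 86.9, 94.1 and 106 CPM in PBS and 101, 107 and 132 in HMO. With LPS it measured 230.3, 249 and 304 CPM, and with LPS+HMO 194, 231 and 275. Both LPS conditions lay above both conditions without LPS in every library. Tbk1 rose by 1.45 on the log2 scale (SE 0.16, adjusted p = 4.39e-05) without 3′SL and by 1.04 (SE 0.16, adjusted p = 0.000564) with it, and scaled to total counts the second was 0.55, under the 1.5-fold minimum.

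Irf1 had the largest fitted change among the 9 genes with counts in every condition. It encodes an activator that interferons and NF-κB induce. Irf1 (ENSMUSG00000018899.16, chr11:53770014-53778374, plus strand) measured 37.4, 44.5 and 54.8 CPM in PBS, 53.2, 50.2 and 63.9 in HMO, 448, 588 and 458 in LPS, and 431, 535 and 483 in LPS+HMO. Set 2 was the highest within each LPS condition, unlike for most of the 10 genes. The log2 change was 3.45 (SE 0.18, adjusted p = 4.58e-07) without 3′SL, a 10.9-fold difference, and 3.11 (SE 0.18) with it, an 8.66-fold difference.

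Irf2 encodes a factor that binds the same core as IRF1 and is best known for repressing it. It is ENSMUSG00000031627.9 (chr8:46739732-46847458, plus strand). Levels were 52.1, 62.4 and 75.7 CPM in PBS, 59.9, 63.6 and 92.7 in HMO, 195, 236 and 326 in LPS, and 177, 206 and 290.3 in LPS+HMO. Each set kept its order, with set 3 the highest, and no library with LPS overlapped those without. Irf2 rose by 1.99 on the log2 scale (SE 0.26, adjusted p = 0.000113) without 3′SL and by 1.64 (SE 0.26, adjusted p = 0.000579) with it.

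Both members of this pair rose, and the ratio between them moved as well. Per length of exon, the ratio of Irf1 to Irf2 was 1.34 ± 0.01 in PBS, 1.47 ± 0.18 in HMO, 3.84 ± 1.08 in LPS and 4.15 ± 0.93 in LPS+HMO (SD, n = 3). In single libraries it ran from 1.28 to 1.65 without LPS and from 2.61 to 4.84 with LPS, so the ranges did not overlap. Within LPS, set 3 had the lowest ratio, 2.61, against 4.28 and 4.63 in sets 1 and 2, and the same held in LPS+HMO with 3.09 against 4.52 and 4.84. Without division by length the mean log2 ratio in PBS was -0.48, so which of the 2 was the more abundant at rest depended on the exon length used.

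**Figure D2:**
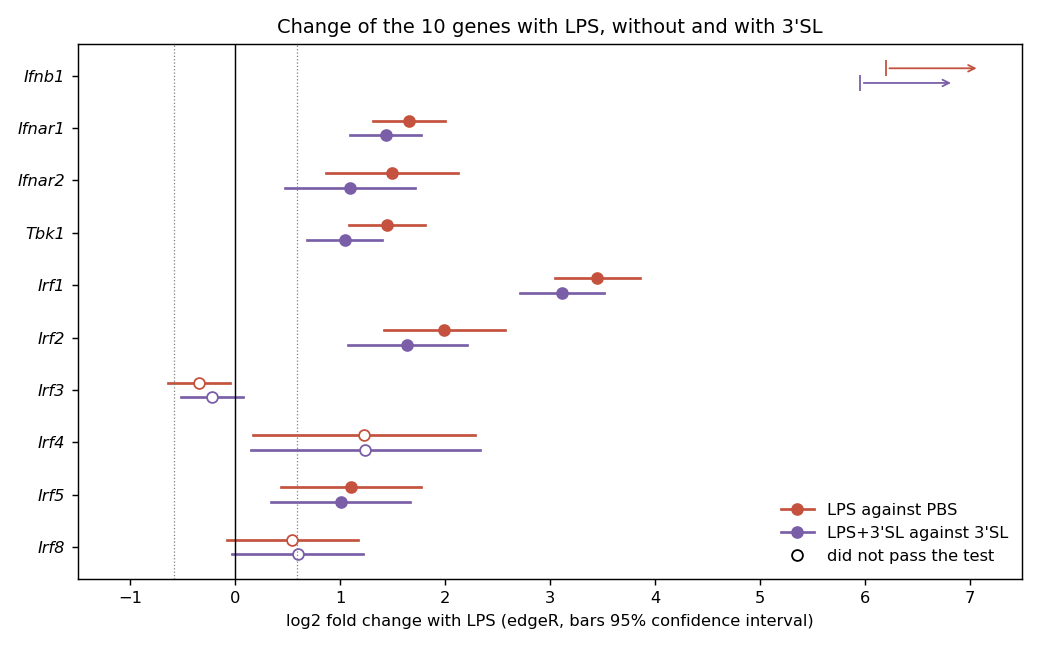
Log2 fold change with LPS (x axis, edgeR) for each gene (y axis), without 3′SL in red and with 3′SL in purple; bars are 95% confidence intervals, open circles did not pass the test, dotted lines mark 1.5-fold and arrows start at the lower bound of Ifnb1. Irf1 lies at 3.45 and 3.11, Irf3 is the one gene below 0, and the intervals of each pair overlap.

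IRF5, which drives inflammatory cytokine genes downstream of MyD88, had the highest mean transcript level per length of the 10 in every condition. Irf5 (ENSMUSG00000029771.12, chr6:29526625-29541871, plus strand) measured 181, 177 and 304 CPM in PBS, 209, 221 and 357 in HMO, 378, 459.7 and 584 in LPS, and 409, 461 and 708 in LPS+HMO. Set 3 was highest in every condition, and the margin between conditions was narrow, since the lowest LPS+HMO library stood at 409 and the highest HMO library at 357. Irf5 rose by 1.10 on the log2 scale (SE 0.30, adjusted p = 0.0115) without 3′SL and by 1.003 (SE 0.30, adjusted p = 0.0236) with it. The second was not called once 1 of 3 libraries was left out, where adjusted p in edgeR was 0.0848 without HMO set 1, 0.0845 without HMO set 2 and 0.0990 without LPS+HMO set 3. Scaled to total counts, the values were 0.44 and 0.51 and neither was called. Irf5 overlaps Tnpo3 on the opposite strand over 14.15% of its exon bases, Irf1 overlaps Gm17334 over 3.40% and Irf3 overlaps Bcl2l12 over 2.56%. As the strand setting of the counting is not given in the sources used here, reads from these stretches are uncertain.

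Irf8 and Irf4, partners of PU.1 in myeloid and lymphoid cells, were not called. Irf8 (ENSMUSG00000041515.10, chr8:120736358-120756694, plus strand), needed for the monocyte and dendritic cell lineage, measured 132, 137 and 195 CPM in PBS and 129.5, 115 and 167 in HMO. It measured 177, 189 and 310 CPM in LPS and 158, 174 and 288 in LPS+HMO. Libraries overlapped between the conditions, but within each set the LPS library was the higher. The log2 change was 0.54 (95% interval -0.08 to 1.17, adjusted p = 0.142) and 0.59 (-0.03 to 1.22, adjusted p = 0.130). With the library sets as a block the intervals were 0.31 to 0.73 and 0.35 to 0.77 (edgeR, adjusted p = 0.000556 and 0.000452), and both changes missed only the 1.5-fold minimum. The first took the opposite sign, -0.14, when scaled to total counts. Markers of plasmacytoid dendritic cells, which also use Irf8, summed to 79.7 to 83.9 CPM in PBS and 71.96 to 82.9 in HMO, against 199.7 to 320.1 in LPS and 174 to 290.4 in LPS+HMO, and so were higher with LPS. Most of this was Tcf4 (70.9 to 314 over the 12 libraries), while Siglech stayed at or below 0.614. Those of conventional dendritic cells summed to 10.1 to 32.8 CPM, and those of B cells to 0.733 to 2.75. Their part in the result was not tested.

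Irf4 (ENSMUSG00000021356.10, chr13:30749226-30766976, plus strand), which is known from alternatively activated macrophages and lymphocytes, was scarce. Its levels were 1.81, 2.39 and 1.86 CPM in PBS, 0.97, 1.79 and 0.40 in HMO, 3.08, 5.42 and 5.65 in LPS, and 1.84, 1.88 and 3.75 in LPS+HMO, from 10 to 112 counts a library. Every LPS library was above every PBS library, and every LPS+HMO library was above every HMO library, the latter by a margin as small as 1.84 against 1.79. Its fitted log2 changes were 1.22 (SE 0.48, adjusted p = 0.0569) and 1.24 (SE 0.49, adjusted p = 0.0736), so neither was called. Both were called with the library sets as a block (adjusted p = 0.0220 and 0.0352) and by DESeq2 (adjusted p = 0.0181 and 0.0277). The first was also called after any 1 of 4 libraries was left out (LPS set 1, HMO set 2, HMO set 3 or LPS+HMO set 3), with the lowest adjusted p, 0.0203, without HMO set 3, and the second, at a log2 change of 1.86, without HMO set 2.

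Irf3, the direct substrate of TBK1, did not rise. Irf3 (ENSMUSG00000003184.15, chr7:44997648-45002848, plus strand) measured 32.8, 30.0 and 37.5 CPM in PBS, 30.3, 30.2 and 35.6 in HMO, 23.0, 25.7 and 30.3 in LPS, and 25.2, 27.3 and 29.6 in LPS+HMO. Within each set the library with LPS was the lower, in both backgrounds, although PBS and LPS overlapped. The log2 change was -0.35 (95% interval -0.64 to -0.05, adjusted p = 0.0548) and -0.22 (-0.52 to 0.07, adjusted p = 0.224). With the library sets as a block, adjusted p in edgeR was 0.00446 and 0.0506, but both changes were under 1.5-fold. Scaled to total counts the values were -1.01 and -0.70, and Irf3 was called lower in both comparisons, where the medians of all genes were -0.71 and -0.54.

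The order of the genes was read per kilobase of exon. In PBS, Irf5 led with 75.9 ± 24.8 CPM per kb, followed by Ifnar1 with 31.0 ± 4.16, Tbk1 with 24.5 ± 2.53, Ifnar2 with 23.9 ± 3.51 and Irf8 with 21.9 ± 4.98 (SD, n = 3). Irf5 did not overlap Ifnar1, whereas from Ifnar1 to Irf8 each gene overlapped its neighbour. Irf1, Irf3 and Irf2 followed with 11.5 ± 2.20, 9.71 ± 1.11 and 8.57 ± 1.60 CPM per kb. Irf1 overlapped Irf3, and Irf3 overlapped Irf2, but Irf1 did not overlap Irf8 and Irf2 did not overlap Irf4. Irf4 stood at 0.41 ± 0.07 and Ifnb1 at 0. In HMO the order was the same, except that Irf2 stood before Irf3, a pair that overlapped.

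With LPS the order changed mainly through Irf1, which moved from the sixth place to the second. Irf5 stood at 163 ± 35.6 CPM per kb in LPS, Irf1 at 125 ± 19.6, Ifnar1 at 97.4 ± 13.5, Ifnar2 at 67.2 ± 27.3 and Tbk1 at 66.8 ± 9.75, and each of these overlapped the next. Irf2 and Irf8 overlapped at 34.1 ± 9.05 and 31.96 ± 10.4 CPM per kb. Irf3 followed at 7.65 ± 1.08, Ifnb1 at 3.18 ± 0.50 and Irf4 at 0.96 ± 0.29, with no overlap among these. In LPS+HMO the order was the same except that Tbk1 stood before Ifnar2, and there only this pair and the pair of Irf2 and Irf8 overlapped.

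**Figure D3:**
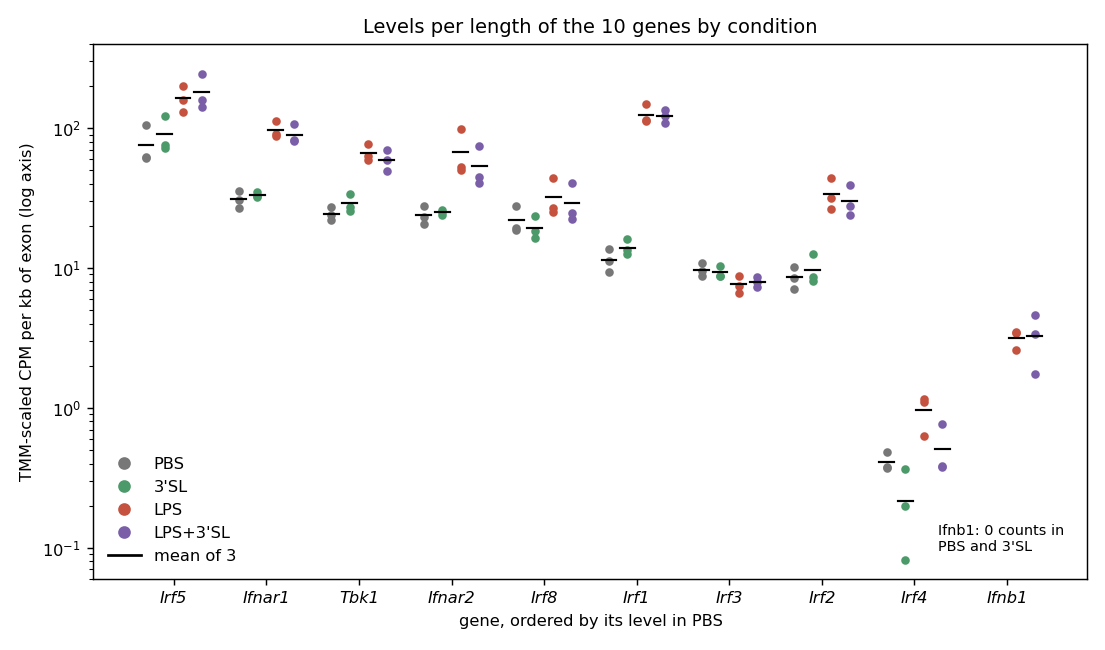
TMM-scaled CPM per kilobase of exon (y axis, log scale) for each gene (x axis, ordered by its PBS level) in the 4 conditions; points are libraries and lines means of 3, and libraries at 0 cannot be drawn on this axis. Irf1 moves from 11.5 CPM per kb in PBS to 125 in LPS, beside Irf5 at 163, while Ifnb1 reaches 3.18 from 0.

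No change of the 10 genes with 3′SL passed the test. These comparisons use the same 12 libraries as those above, so the values are given side by side and not as independent results. In HMO against PBS 0 of 9 genes were called (Ifnb1 had no counts to compare), in LPS+HMO against LPS 0 of 10, and 0 of 9 for the interaction, which is the difference between these changes with and without LPS. The share of all genes called was likewise 0%, 0% and 0%. At an unadjusted p under 0.05, 0 of the 10 genes passed in each of these comparisons, against 1439, 995 and 872 of all genes. With the library sets as a block, 5 of 9, 3 of 10 and 2 of 9 passed it, against 3440, 2190 and 2473 of all genes. After adjustment the block called 2.84%, 1.45% and 1.55% of all genes, and DESeq2 called 0.615%, 0.79% and 0.308%, but 0 of the 10 genes in either. Libraries of the conditions compared did not overlap for 1 of the 10 genes in HMO against PBS and for 0 in LPS+HMO against LPS, where the shares of all genes were 17.5% and 12.7%.

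The intervals show how large a change could have been missed. For Ifnb1 the log2 change in LPS+HMO against LPS was 0.03 (95% interval -1.01 to 1.08). Set 1 was lower with 3′SL by 0.56 on the log2 scale, set 2 was lower by 0.05, and set 3 was higher by 0.43, so the sets gave opposite signs. Without LPS+HMO set 3 the value was -0.31, and without LPS+HMO set 1 it was 0.34. For Ifnar1 the log2 change was 0.10 (-0.23 to 0.44) at rest and -0.12 (-0.45 to 0.22) with LPS. For Ifnar2 it was 0.07 (-0.54 to 0.68) and -0.33 (-0.95 to 0.28). For Irf1 the values were 0.29 (-0.08 to 0.66) and -0.04 (-0.41 to 0.33), and for Irf5 they were 0.25 (-0.41 to 0.91) and 0.15 (-0.51 to 0.81). For Irf3 they were -0.06 (-0.36 to 0.23) and 0.06 (-0.24 to 0.35). A log2 change of 1 in either direction lay outside the intervals of the other 8 genes, whereas the interval of Ifnb1 included both 1 and -1 and those of Irf4 included -1. These intervals are of the fit without the sets. With the sets as a block, intervals at rest excluded 0 for Tbk1 (0.08 to 0.39), Irf1 (0.02 to 0.59) and Irf2 (0.0083 to 0.34). The same held for Irf4 (-1.91 to -0.00061) and Irf5 (0.06 to 0.44). With LPS they excluded 0 for Tbk1 (-0.32 to -0.02), Irf2 (-0.33 to -0.0047) and Irf4 (-1.78 to -0.01). None passed after adjustment (lowest adjusted p in edgeR 0.0710 and 0.275).

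The direction within the sets was read next. All 3 sets changed in the same direction for 6 of 9 genes in HMO against PBS and for 7 of 10 in LPS+HMO against LPS, and the same was true of 51.3% and 47% of all genes. Irf4 was lower with 3′SL in each set, by -0.87, -0.41 and -2.11 at rest and by -0.73, -1.504 and -0.58 with LPS, on the log2 scale. Its libraries did not overlap at rest and overlapped with LPS, and the fitted changes were -0.94 (adjusted p = 0.574) and -0.92 (adjusted p = 0.803). With the sets as a block and set 3 left out, Irf4 alone of the 10 was called in LPS+HMO against LPS. Irf8 was also lower with 3′SL in all 3 sets in both backgrounds, by at most 0.25, and 6.81% of all genes showed this pattern. Irf5 was higher in all 3 sets in both backgrounds, by 0.21 to 0.32 at rest and by 0.0028 to 0.28 with LPS.

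Tbk1 and Irf2 had opposite signs in the 2 backgrounds. Tbk1 was higher with 3′SL in each set at rest, by 0.21, 0.19 and 0.31, and lower in each set with LPS, by -0.25, -0.11 and -0.14. Irf2 was higher by 0.20, 0.03 and 0.29 at rest and lower by -0.14, -0.20 and -0.17 with LPS. Of all genes 6.55% were higher in all 3 sets at rest and lower in all 3 with LPS. Scaled to total counts, neither gene kept the pattern in set 2. There Tbk1 was at 204.96 CPM in LPS and 205.65 in LPS+HMO, and Irf2 at 78.5 in PBS and 78.3 in HMO. The interaction was -0.40 for Tbk1 (95% interval -0.91 to 0.10, adjusted p = 0.850) and -0.35 for Irf2 (-1.14 to 0.43, adjusted p = 0.927), and with the sets as a block adjusted p was 0.0658 and 0.131, so the difference was not shown by either fit. With TMM factors, a negative interaction in all 3 sets was found for 5 of the 9 genes (Ifnar1, Ifnar2, Tbk1, Irf1 and Irf2). The share of all genes with this pattern was not counted, so the number is a description only. By point estimate LPS raised these 5 less with 3′SL than without, and each missed the threshold in both fits. Scaled to total counts, Ifnar1 and Irf1 lost the pattern in set 3. There Ifnar1 went with 3′SL from 254 to 223 CPM at rest and from 469 to 461 with LPS. Irf1 went from 66.3 to 68.9 CPM at rest and from 320 to 349 with LPS.

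**Figure D4:**
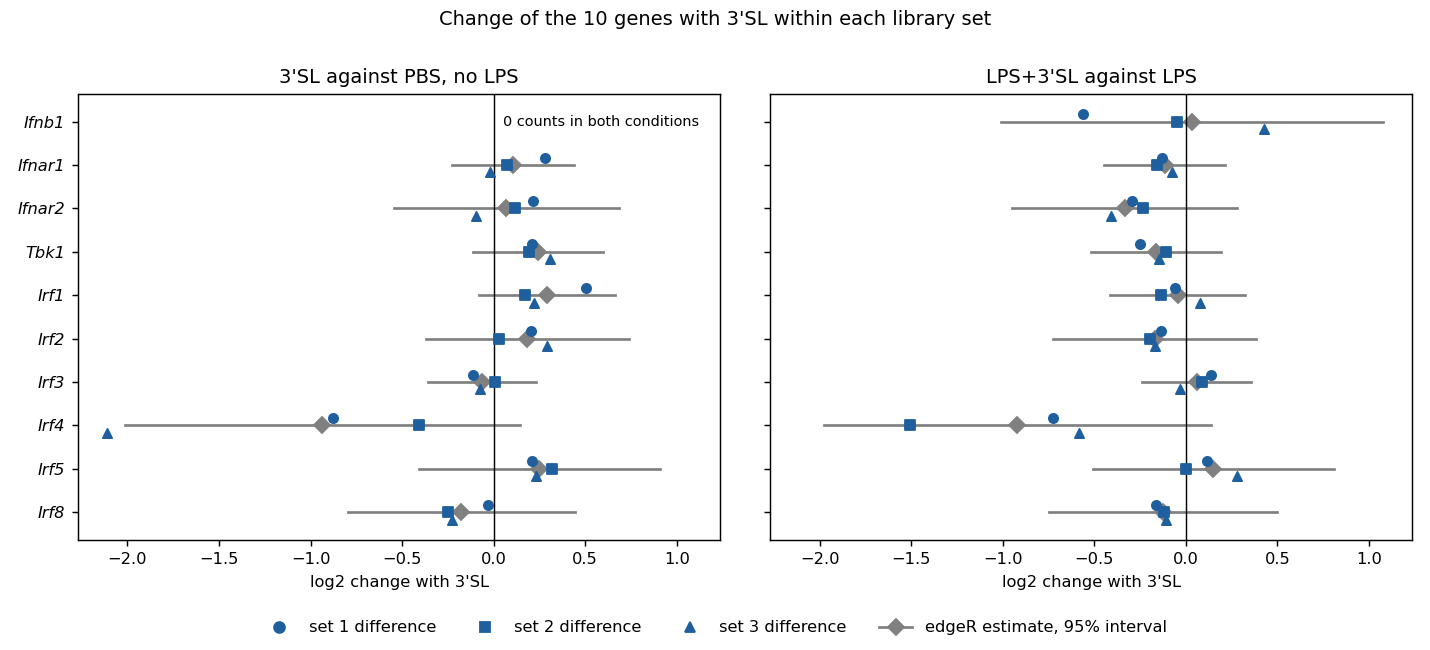
Log2 change with 3′SL (x axes) for each gene (y axis) at rest (left) and with LPS (right); blue symbols are the differences within sets 1, 2 and 3, and grey diamonds with bars are edgeR estimates with 95% intervals. Every interval, from the fit without the sets, crosses 0, and Irf4 lies to the left in all 3 sets of both panels. With TMM factors, as drawn, Tbk1 and Irf2 lie to the right at rest and to the left with LPS.

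The rest of the pathway was read from a list of 85 other genes in 9 roles, of which 66 were tested. In LPS against PBS 47 were called higher and 3 lower, and in LPS+HMO against HMO 46 higher and 2 lower, beside the shares of all genes given above. The list was chosen with results of these data known. Its median log2 change was 2.57 and 2.01, beside -0.06 and -0.07 for all genes. Scaled to total counts, 42 were higher and 14 lower in the first comparison and 40 higher and 9 lower in the second, so calls in both directions depended on the scaling. Of all 14308 genes, 1535 were then higher and 6657 lower in the first, and 1350 higher and 4856 lower in the second.

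Below the receptor, Stat2, which carries the signal to the nucleus, went from 117 ± 51.8 CPM in PBS to 1321 ± 314 in LPS (SD, n = 3), with a log2 change of 3.50. The receptor-bound kinase genes Jak1 and Tyk2 rose by 1.10 and 1.80 on the log2 scale. All of these were also called higher in LPS+HMO against HMO, with log2 changes of 3.09, 0.83 and 1.56. Jak1 under total counts stood at 0.42 and 0.33 and was called in neither comparison.

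Irf7 and Irf9, which lie outside the 10, rose as well. Irf7, the IRF that amplifies interferon production, went from 62.4 ± 55.6 to 1591 ± 613 CPM with LPS (log2 change 4.67, SE 0.85, adjusted p = 0.00106), beside 3.45 for Irf1. Irf9, the DNA-binding part of an interferon-activated complex with STAT proteins, rose by 1.42.

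Every interferon-stimulated gene of the list rose, 14 of 14 in both comparisons and under both scalings, with median log2 changes of 6.82 and 6.08. Examples were Rsad2 (viperin, an antiviral enzyme), from 95.4 ± 82.7 to 16601 ± 4231 CPM, Ifit2 (an RNA-binding antiviral protein), from 95.5 ± 74.1 to 10802 ± 2700, and Cxcl10 (a chemokine for T cells), from 10.2 ± 7.90 to 4816 ± 865. Their levels in PBS varied between libraries by nearly as much as their means. With 3′SL at rest all 14 had a positive log2 change, with a median of 0.52, beside 50.2% of all genes. With LPS 2 of 14 did, with a median of -0.09, beside 48.7% of all genes. Scaled to total counts, 14 and 4 were positive, beside 38.4% and 63.9% of all genes. In either comparison 0 of the 14 passed the test. For the interaction 0 of 14 were positive under both scalings, beside 49.5% of all genes and 67.6% under total counts, and again 0 passed. These 14 genes were listed as targets of the same cytokine and measured in the same libraries. Their directions are thus not independent of each other, and these counts are a description only.

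Upstream of TBK1, 8 of 12 sensors and adaptors were called higher in both comparisons and 0 lower. Under total counts, 6 were higher and 2, Mavs (-1.20) and Sting1 (-0.82), lower in LPS against PBS, and 6 higher and 1 lower in LPS+HMO against HMO. With that scaling 46.5% of all genes were called lower in LPS against PBS and the median gene stood at -0.71. The lower calls in these groups are therefore a description only. Tlr3, a sensor of double-stranded RNA, rose from 16.4 ± 0.49 to 365 ± 55.2 CPM, and the cytosolic RNA sensors Ifih1 and Rigi rose by 5.36 and 4.23 on the log2 scale. Tlr4 itself had a log2 change of 0.58, under the 1.5-fold minimum, and Ticam1, which encodes TRIF, rose by 1.02. Under total counts they stood at -0.08 and 0.35 and neither was called. Of the partners of TBK1, 5 of 10 were called higher, among them the related kinase gene Ikbke (2.77) and the scaffolds Tank (2.04) and Azi2 (2.47), which hold TBK1 in complexes. Under total counts 5 were higher and 4 lower. Among the subunits known from the Ifnb1 enhancer 2 of 5 rose, Nfkb1 by 2.86 and Rela by 1.04, while Jun, Atf2 and Hmga1 were not called. Under total counts Rela stood at 0.38 and was not called, and Jun (-0.82) and Hmga1 (-0.71) were called lower, both near the median of all genes.

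Negative regulators rose in large part. Of 14 genes in this group, 9 were called higher and 2 lower in LPS against PBS, and 9 higher and 1 lower in LPS+HMO against HMO. Under total counts these were 8 and 4, and 7 and 2, where 46.5% of all genes were called lower in LPS against PBS. Socs3 and Socs1, inhibitors of Janus kinases, rose by 8.42 and 6.79 on the log2 scale, and Usp18, which blocks signalling at IFNAR2, rose by 5.58. The lower ones were Irf2bp2 (-1.05) and Irf2bp1 (-0.81), corepressors that bind IRF2, and these 2 were also called lower under total counts. Of the partner factors of IRF4 and IRF8, Batf rose by 3.97 and Spi1, the gene of PU.1, by 1.26, and Tcf3 fell by 1.25 on the log2 scale.

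**Figure D5:**
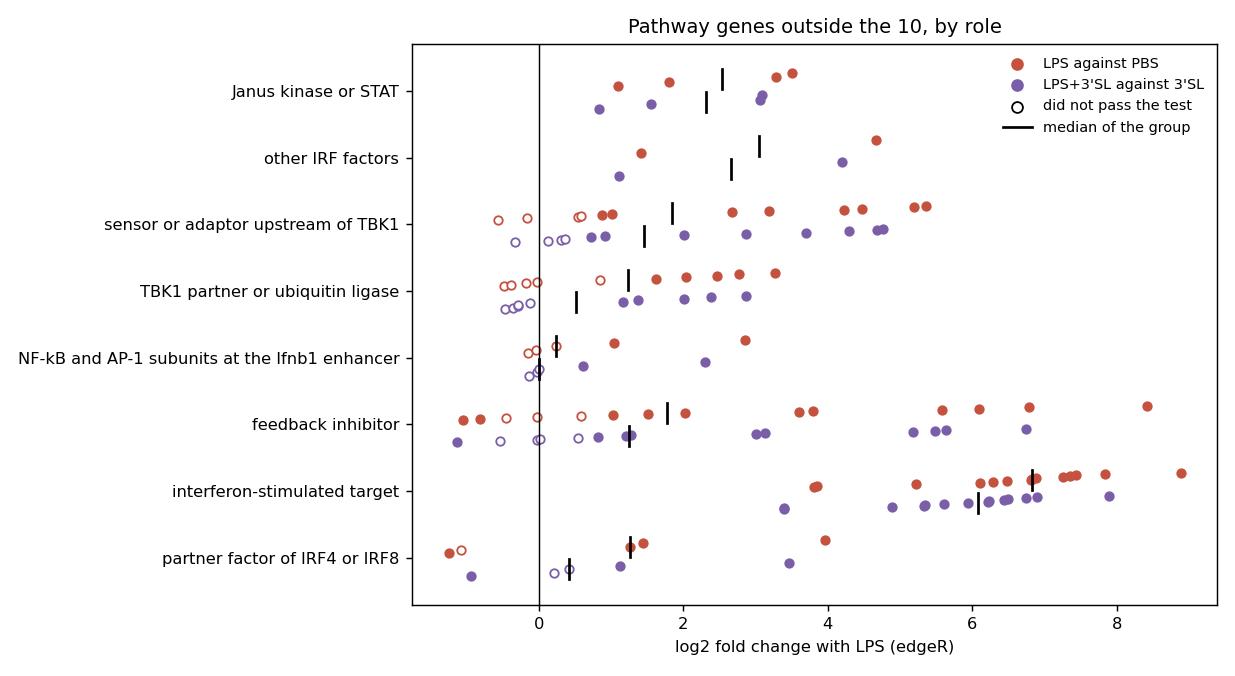
Log2 fold change with LPS (x axis, edgeR) of the 66 tested pathway genes outside the 10, by role (y axis), without 3′SL in red and with 3′SL in purple; filled points passed the test and black ticks are medians. The 14 interferon-stimulated genes all lie above 3, with medians of 6.82 and 6.08, while the NF-κB and AP-1 group has medians of 0.24 and 0.0021.

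With 3′SL, 0 of the 66 pathway genes were called in HMO against PBS, in LPS+HMO against LPS or for the interaction. With the library sets as a block, 3 of 66 were called in HMO against PBS, 1 in LPS+HMO against LPS and 2 for the interaction. The shares of all genes called by this fit were 2.84%, 1.45% and 1.55%, so these few calls are given as a description. Cd14, the LPS co-receptor gene, was higher at rest by 0.81 (adjusted p = 0.00945), as were Sqstm1 by 1.12 (adjusted p = 0.0385) and Ets2 by 0.73 (adjusted p = 0.0313). Tnfaip3, the gene of the ubiquitin editor A20, was lower with LPS by -0.90 (adjusted p = 0.0104). For the interaction Tank was called at -0.65 (adjusted p = 0.0307) and Ets2 at -1.13 (adjusted p = 0.0395). All are edgeR values. With set 1 or set 2 left out, 0 of the 66 were called in these comparisons, and leaving out set 3 gave 5, 1 and 9 calls in place of 3, 1 and 2.

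The genes whose course over the 12 libraries was most like that of 3 of the 10 were named by the root mean square difference of centred log2 CPM over 12068 genes. For Ifnb1 these were Enpp4 (0.35), Fgl2 (0.37) and Il15ra (0.39), where the median gene differed by 2.97. As Ifnb1 had 0 counts in every PBS and HMO library, the prior count set its value there, at -4.59. Which genes came out as most like Ifnb1 thus depended on that prior count. For Irf1 they were Trim21 (0.18), Pou2f2 (0.21) and Zup1 (0.21), with a median of 1.72 over all genes. For Irf8 they were Il3ra (0.08), Ctss (0.10) and Bcl6 (0.13), with a median of 0.60. The likeness is over 12 libraries that share their sets and conditions and is a description only.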

How the data were processed

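The deposited counts were 1 table for each of 12 libraries, made by the authors from poly(A)-selected, strand-marking libraries, in raw read counts per Ensembl gene with no normalization; the submitters' processing notes name FastQC, Trimmomatic, STAR, HTSeq and DESeq2, and their versions, the genome build and the strand setting of counting are not given in the sources used here. Footer lines without a gene (33.2% to 37.1% of reads) were left out. Gene positions, exon lengths and overlaps came from GENCODE vM21 (GRCm38), joined by Ensembl identifier without its version number. The count files carried other versions for all of the 10 genes but Ifnb1, such as ENSMUSG00000022967.8 for Ifnar1. Exon lengths, levels per length and overlaps may therefore differ from the gene models on which the reads were counted. Counts were fitted in edgeR 4.0.16 (R 4.3.3) with filterByExpr, TMM factors, 1 mean per condition and a quasi-likelihood test, with Benjamini-Hochberg adjustment over all genes tested; a call needed adjusted p under 0.05 and at least 1.5-fold. DESeq2 1.42.0 and sva 3.50.0 served as alternatives, with other scalings, filters, blocks and left-out libraries; the block without 1 set was chosen after seeing the data. The edgeR and DESeq2 fits without a block were tested on simulated data with independent libraries and planted LPS changes only. That simulation cannot speak for the block or for the power to find changes with 3′SL. Levels within sets used log2 CPM with a prior count of 1. Ifnb1 at 0 was set to 3 counts over a group for its bounds, which cover counting error only. All 10 genes were named in every comparison, pathway genes where they passed the call (others are given with values or counted), and 3 genes by likeness for Ifnb1, Irf1 and Irf8 (mean CPM at least 1). The members and lists were chosen with earlier results of these data known. Some genes of the pathway list are not reported here by name.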

Additional observations from a re-analysis of the deposited data

Results flagged for a closer look

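With TMM factors, Tbk1 and Irf2 moved in opposite directions with 3′SL without and with LPS in all 3 library sets. The interaction was then -0.40 for Tbk1 and -0.35 for Irf2 on the log2 scale. Scaled to total counts, neither gene showed this in set 2, and the interactions were -0.23 and -0.17. The difference was tested as an interaction and did not pass for either gene (adjusted p = 0.850 and 0.927 in edgeR, and 0.0658 and 0.131 with the library sets as a block). With each library left out in turn, the interaction ran from -0.54 to -0.25 for Tbk1 and from -0.58 to -0.094 for Irf2.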

How the results depend on the processing

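The labels carry no replicate numbers or donors, so the library sets, read from label order and from the data, served as a block only as an alternative. Of the 10 genes, 7 to 8 were called in LPS against PBS and 6 to 7 in LPS+HMO against HMO when 1 library was left out, and the calls on Irf4 and Irf5 were the ones that moved. In LPS against PBS the genes called were 2613 up and 2889 down, total counts gave 1535 up and 6657 down, and the sets as a block with total counts gave 9098 in all. In LPS+HMO against HMO the calls were 2051 up and 2120 down, total counts gave 1350 up and 4856 down, and block and total counts gave 7422 in all. In HMO against PBS 0 genes were called, but 88 by DESeq2, 406 with the block, 365 with block and total counts and 648 with block and DESeq2. In LPS+HMO against LPS 0 were called, but 113 by DESeq2, 207 with the block, 218 with block and total counts, 284 with block and DESeq2, 1 with DESeq2's size factors, 1 with total counts, 2 with all genes of at least 1 count, 2 with 1 surrogate variable, and 0 to 8 without 1 library, the 8 without HMO replicate 3. For the interaction 0 were called, but 44 by DESeq2, 222 with the block, 136 with block and total counts and 506 with block and DESeq2. Of the pathway list, the block gave 3 calls in HMO against PBS (1 with total counts, 3 with DESeq2, 5 without set 3), 1 in LPS+HMO against LPS (1, 3 and 1) and 2 for the interaction (4 with DESeq2, 9 without set 3). Of the 10 genes, 1 (Irf4) was called in LPS+HMO against LPS with the block and without set 3. The block without 1 set was chosen after seeing the data.

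None of the values that changed sign was called. Ifnb1 in LPS+HMO against LPS was -0.044 with the block, -0.053 with block and DESeq2, -0.054 with 1 surrogate variable, -0.045 with the block without set 2 and -0.28 without set 3. Total counts gave -0.012 for Ifnar2 in HMO against PBS, 0.040 for Irf1 in LPS+HMO against LPS (0.043 with the block), 0.073 for the Irf5 interaction (0.052 with the block) and -0.14 for Irf8 in LPS against PBS (-0.14 with the block). With the block and without set 2, Irf1 in LPS+HMO against LPS was 0.0065 and the Irf8 interaction -0.0074, and without set 3 the Irf4 interaction was -0.49. The ratio of Irf1 to Irf2 in PBS was -0.48 on the log2 scale without length. With 1 library left out, values in HMO against PBS ran from -0.024 to 0.19 for Ifnar2, -0.074 to 0.33 for Irf2, -0.18 to 0.030 for Irf3, -0.075 to 0.55 for Irf5 and -0.38 to 0.027 for Irf8. In LPS+HMO against LPS they ran from -0.31 to 0.34 for Ifnb1, -0.26 to 0.0048 for Ifnar1, -0.65 to 0.053 for Ifnar2, -0.12 to 0.093 for Irf1, -0.40 to 0.060 for Irf2, -0.029 to 0.17 for Irf3, -0.12 to 0.33 for Irf5 and -0.44 to 0.18 for Irf8. For the interaction they ran from -0.40 to 0.63 for Irf4, -0.40 to 0.22 for Irf5 and -0.26 to 0.35 for Irf8. The cause was not tested. The common coefficient of variation between libraries was 0.31, and 0.133 with the block. For Ifnb1, 27 to 65 counts a library limited the precision.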
